A study of Mus musculus with 19 samples.

Results

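The Hox genes were examined for binding of YAP and TEAD in mouse liver. They are the 39 protein-coding genes whose symbol is Hoxa, Hoxb, Hoxc or Hoxd followed by a number in the GENCODE annotation of the NCBIM37 (mm9) assembly, among 22211 protein-coding genes on the numbered chromosomes and X. They lie in 4 clusters, and each cluster was examined with 10 kb on either side. Chromatin immunoprecipitation and sequencing (ChIP-seq) gave 19 samples in 6 groups, with 3 replicates per group and 4 for TEAD at 7 d. All mice were C57BL/6 and carried ROSA26-rtTA-IRES-EGFP, the doxycycline-responsive activator. The WT group had no YAP transgene and received doxycycline food for 7 days. The 3 d and 7 d groups also carried tetYAP, an inducible and activated YAP, and received the same food for 3 or 7 days. The study's methods describe a cross of the YAP mice with Alb-CRE mice, whose Cre recombinase is driven by the albumin promoter, which is active in hepatocytes.

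YAP is a coactivator that is held back by the Hippo pathway and has no DNA-binding domain of its own. It reaches DNA mainly through TEAD proteins, which recognise the sequence GGAATG. Hox genes encode homeodomain transcription factors that give cells of the embryo their position along the body axis. They are arranged in the order in which they are used along that axis, many have CpG-rich starts, and in cells where they are off Polycomb complexes cover whole clusters. The rule describes them as CpG-rich and largely silent in liver. By the threshold used here, a GC content of at least 55% and a CpG observed/expected ratio of at least 0.6 within 500 bp of the outermost start, 17 of 39 Hox genes (43.6%) had a CpG-rich start, against 38.6% of all protein-coding genes. Their expression was not measured in these samples, so silence could not be checked.

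The authors merged the replicates of each group before calling peaks. Each group is therefore 1 peak list, differences between groups have no replicate check, and no test between groups was possible. YAP had 156 peaks in the WT list, 110 at 3 d and 1478 at 7 d. The TEAD lists held 5695, 36446 and 38984 peaks in the same order. The merged libraries held between 34260362 and 55032002 tags. The fragment length used in calling was 400 bp for TEAD in WT livers but 207 bp and 206 bp at 3 d and 7 d, and its part in the differences between WT and induced livers was not tested. Intervals are 95% intervals and cover counting error only.

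The Hoxa cluster, on chromosome 6, has 11 genes. In mm9, Hoxb is chr11:96055630-96229570 with 10 genes, Hoxc chr15:102751534-102867274 with 9 and Hoxd chr2:74506367-74603200 with 9. TEAD peaks were called at 2 places in the Hox clusters, both in Hoxa and both after induction. Of these, the site at the start of Hoxa7, a gene that acts along the trunk, is described here. The Hoxb, Hoxc and Hoxd clusters held no peak in any of the 6 lists, and no cluster held a YAP peak. The 4 intervals span 572 kb in all and held 0 TEAD peaks in the WT list and 2 in each list after induction. The density was 3.50 peaks per Mb at 3 d and 7 d (exact Poisson interval 0.423 to 12.6), against 13.8 and 14.8 per Mb over the numbered chromosomes and X. At those rates a stretch of this length would hold 7.89 and 8.44 peaks, both above the upper bound of 7.22 that a count of 2 allows. The margin was small, and the Poisson interval treats peaks as independent of each other and may therefore be too narrow. For TEAD in WT livers the rate would give 1.23 peaks and for YAP at 7 d 0.316, so that a count of 0 in those lists, which allows up to 3.69, did not set the clusters apart from the genome. Within Hoxa alone the density was 15.9 per Mb at both times, near the value for the genome, but 2 peaks are too few to fix this density.

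**Figure D1:**
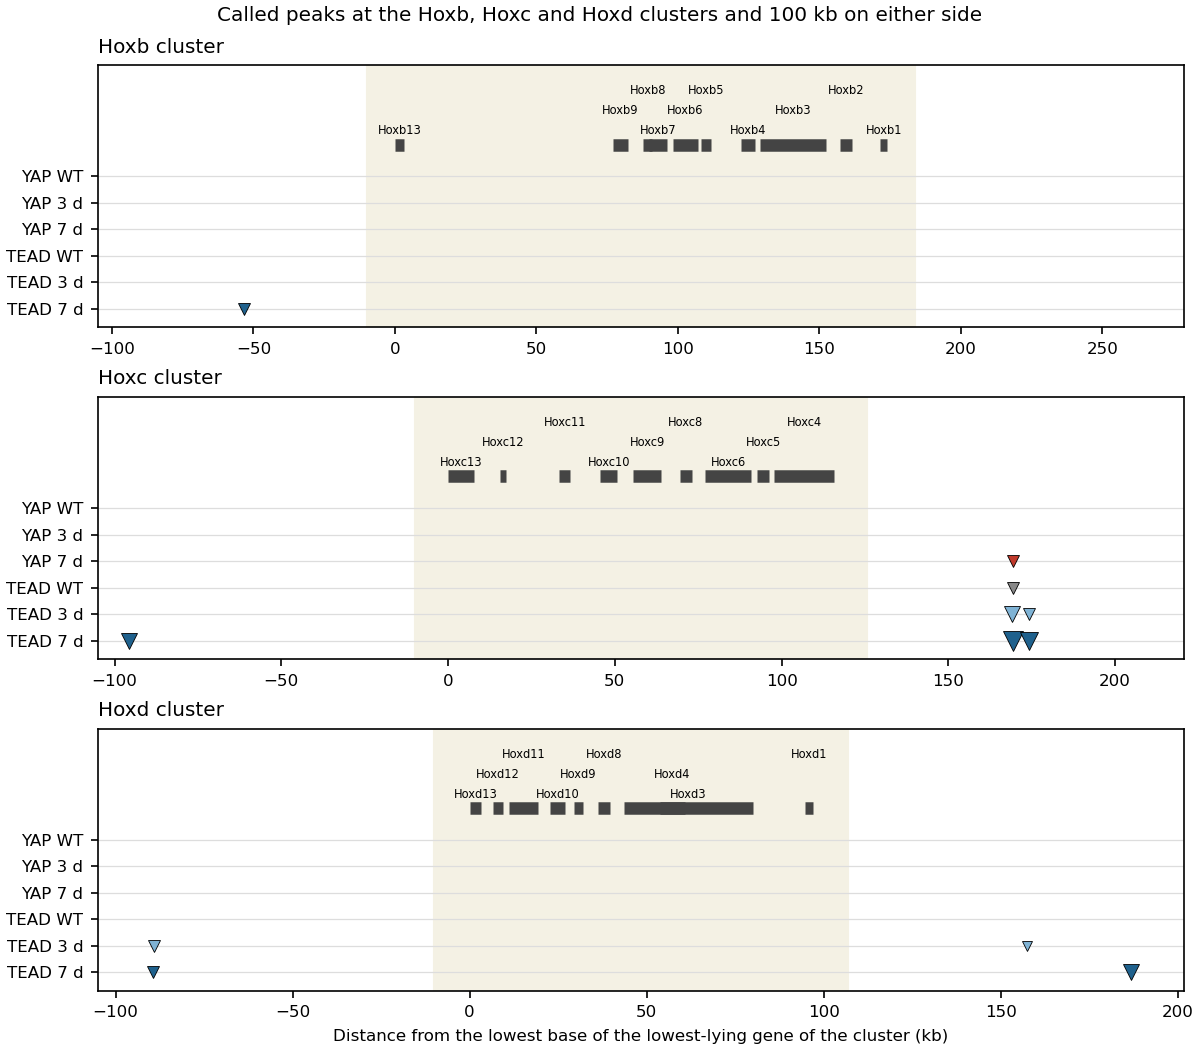
Maps of the Hoxb, Hoxc and Hoxd clusters with 100 kb on either side. The x axis is the distance in kb from the lowest base of the lowest-lying gene, grey bars are genes, shading marks the cluster with its 10 kb flanks, each row is a peak list, and larger triangles have higher fold enrichment. No triangle lies inside the shading in any of the 6 lists.

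A promoter was taken to begin 2000 bp before an annotated start and to end 1000 bp after it, and any peak that overlapped it by 1 bp was counted. In WT livers, 0 of 39 Hox genes had a TEAD promoter peak (Wilson interval 0 to 8.97%), against 8.73% of all protein-coding genes. At 3 d it was 2 of 39 (5.13%, 1.42 to 16.9), against 39.03% of all. At 7 d it was again 2 of 39, Hoxa7 among them both times, against 37.7% of all. The Hox share after induction thus stayed below the background, with its interval ending at 16.9%, whereas in WT livers the interval reached the background. Wilson intervals treat the Hox genes as independent, although they lie side by side in 4 clusters, and may therefore be too narrow. For YAP, no Hox promoter was called, against backgrounds of 0.0360% in the WT list, 0.0720% at 3 d and 1.04% at 7 d. With 39 genes, a count of 0 is also what such backgrounds would give. None of the 16 genes of groups 9 to 13, which act toward the tail and in the limbs, was called in any list. This allows up to 19.4%, and 2 called genes are too few to set these groups apart from the other Hox genes.

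After induction, the Hox share was also low when genes of like CpG content were set side by side. Among the 17 Hox genes with a CpG-rich start, 0 had a TEAD promoter peak in the WT list (0 to 18.4%) and 2 after induction (11.8%, 3.29 to 34.3). The background for genes with such a start was 12.5% in the WT list, which that interval reached, 59.4% at 3 d and 56.9% at 7 d. For YAP, 0 of the 17 were called, against backgrounds of 0.0467% at 3 d and 1.47% at 7 d. Among the 22 other Hox genes none was called, which allows up to 14.9%, against 26.3% and 25.7% of all genes without a CpG-rich start at 3 d and 7 d. In the class with a ratio of 0.6 to 0.8, which holds Hoxa7, 2 of 14 Hox genes were called at 3 d and 58.7% of all genes. Of the 7 Hox genes with a ratio of 0.8 to 1.0, 0 were called, against 64.3% of all genes in that class.

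**Figure D2:**
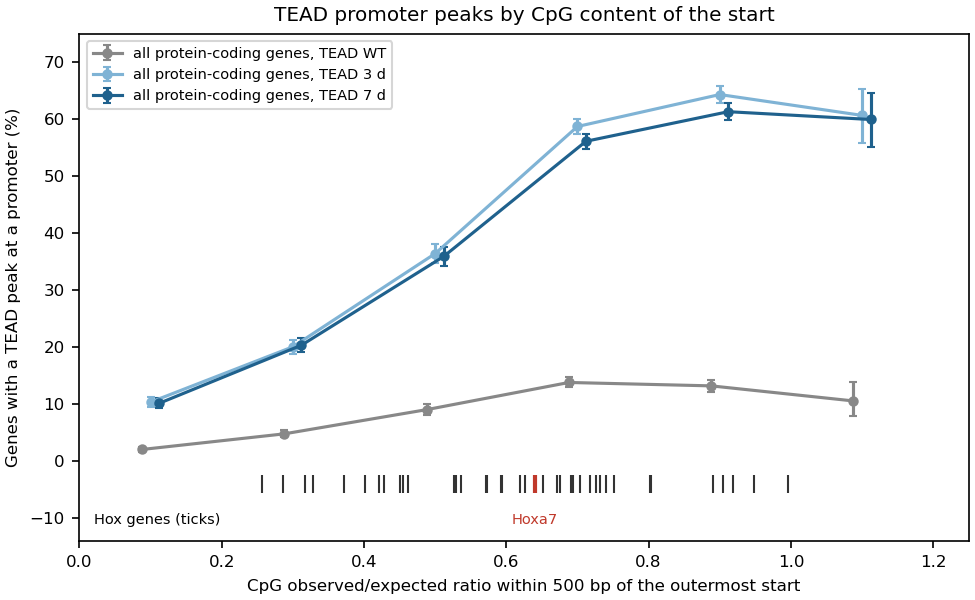
Share of all protein-coding genes with a TEAD promoter peak (y axis, %, with Wilson intervals) by the CpG observed/expected ratio around the start (x axis), for the 3 TEAD lists. Ticks below 0 mark each of the 39 Hox genes at its own ratio. The red tick is Hoxa7, which carried a peak at 3 d and 7 d. The 7 Hox genes with a ratio of 0.8 or more had none, where all genes reach 64.3% at 3 d.

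The Hoxa7 site had a low fold enrichment within both lists. At 3 d the peak was chr6:52171642-52171880, with a summit 26 bp downstream of the Hoxa7 start in the UTR of its starting exon, a pileup of 33 fragments and a fold enrichment of 3.85 over the local background. At 7 d it was chr6:52171642-52171961, with a summit 37 bp downstream, a pileup of 21 and a fold enrichment of 3.5. These fold enrichments exceeded 8.82% of the list at 3 d and 0.301% at 7 d. By p-value the peak ranked 28158 of 36446 at 3 d and 38725 of 38984 at 7 d. The list median pileup was 36 and 33 fragments. In bulk liver, weak binding in most cells and binding in a few cells cannot be told apart. No GGAATG lay within 100 bp of the summit in either list, whereas 30.4% and 35.2% of all TEAD peaks at 3 d and 7 d had one, but a match 141 bp downstream of the start was inside both peaks. The window around that match, on the minus strand, shows it in capitals.
Hoxa7 match, chr6:52171709-52171714: gcgagcctttctGGAATGggatttgtgtga

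**Figure D3:**
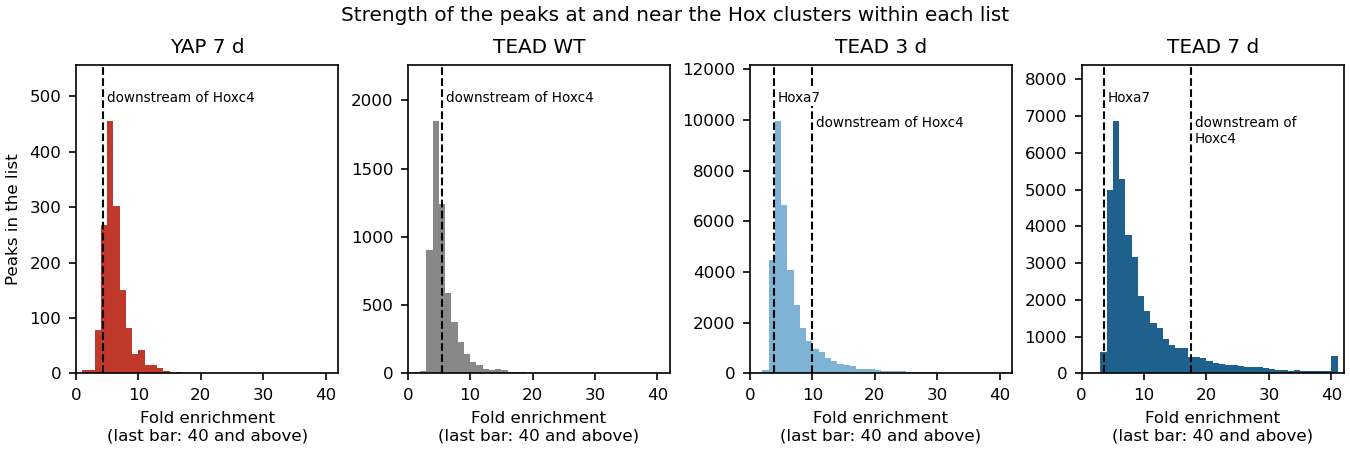
Fold enrichment of all peaks (x axis) and number of peaks (y axis, linear) in the YAP list at 7 d and the 3 TEAD lists. Dashed lines mark the peaks at Hoxa7 and at the site downstream of Hoxc4. Hoxa7 is at the low edge of the 3 d and 7 d TEAD lists, at 3.85 and 3.5.

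The TEAD sequence was about as frequent at Hox starts as at those of all genes, and its part in the missing peaks was not tested. The sequence was searched around the outermost start of each gene only, with the same window before and after it. For genes with a match, peaks were likewise counted at the outermost start only, whereas the shares given above used every annotated start. GGAATG, on either strand, occurred there in 34 of 39 Hox genes (87.2%) and in 79.4% of all genes, with 1.67 and 1.64 matches per gene. Hoxa4, Hoxa5, Hoxb4, Hoxb5 and Hoxd3 had none at the outermost start. Of the Hox genes with a match, 2 of 34 (5.88%) had a TEAD peak at 3 d, against 35.3% of all such genes. Over all protein-coding genes, with or without a match, the share at the outermost start was 35.6%. The 4 intervals held 295 matches, 51.6 per 100 kb, and the genome 59.3 per 100 kb. At 3 d and 7 d, 2 of the 295 (0.678%) lay in a TEAD peak, against 1.24% and 1.48% of matches genome-wide. A count of 2 is too small to tell these shares apart. Hoxd1 and Hoxa3 held the most, with 5 matches each, and neither had a promoter peak. The 5 Hoxd1 matches are shown in capitals, each on its own strand, as an example of a promoter with many matches and no peak in any list. Those of Hoxa3 are not shown.
Hoxd1, chr2:74599538-74599543: cacctagacttgGGAATGgtcacgtgactg
Hoxd1, chr2:74600451-74600456: tgggggcgggggGGAATGgtgcaaagaaaa
Hoxd1, chr2:74600570-74600575: gggaagatgcaaGGAATGtctgttctaggt
Hoxd1, chr2:74600746-74600751: gctatttcccggGGAATGatgggcgagcct
Hoxd1, chr2:74601592-74601597: ggccgctgagcaGGAATGatcccccgccgg

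Distances from the Hox starts to the nearest TEAD summit were long outside Hoxa after induction. In the WT list Hoxa did not stand apart from the other clusters. The median over the 39 genes was 208 kb in the WT list, and 99.7 kb and 99.8 kb after 3 and 7 days of induction, against 104, 8.35 and 8.28 kb for all protein-coding genes. For other developmental homeobox genes, such as Pax, Lhx and Irx members, it was 204, 50.0 and 41.9 kb. In Hoxa it was 196 kb in the WT list and 10.5 kb at 3 d. In Hoxb it was 222 and 201 kb, in Hoxc 113 kb in both lists, and in Hoxd 505 and 98.7 kb. At 3 d, 5 Hox genes (12.8%) had a summit within 10 kb, against 51.8% of all genes, and all 5 were in Hoxa. For YAP at 7 d, the median was 478 kb over Hox genes and 488 kb over all genes, and the shortest was 55.9 kb, at Hoxc4. Genes of 1 cluster share their nearest summits, so these distances are not independent. Peak-free stretches around Hoxb, Hoxc and Hoxd at 3 d were 460, 367 and 246 kb long. These exceeded 97.2%, 96.5% and 94.8% of the gaps between neighbouring TEAD peaks, whose median was 13.2 kb. At 7 d the stretches were 462, 264 and 276 kb, with a median gap of 13.4 kb. In the WT list they were 569, 684 and 2155 kb and exceeded 81.3%, 84.0% and 95.9% of gaps, with a median of 132 kb. Long gaps cover more sequence than short gaps, so shares of gaps are not shares of the genome. Of the 764 bins of 100 kb with at least 5 protein-coding starts, 22.4% had no TEAD peak at 3 d. Hox genes lay in 5 of these bins, and 4 of the 5 had no TEAD peak at 3 d.

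**Figure D4:**
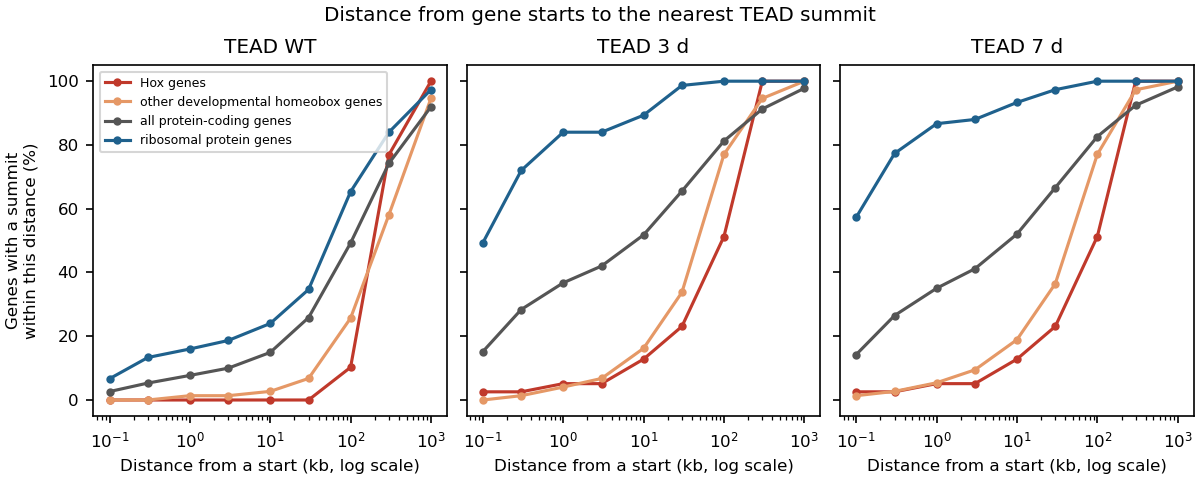
Cumulative share of genes (y axis, %) with a TEAD summit within a given distance of a start (x axis, kb, log scale) in the 3 TEAD lists. Hox genes and other developmental homeobox genes rise late, and ribosomal protein genes rise early after induction. In WT livers no Hox gene has a summit within 30 kb.

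Gene groups chosen as comparisons are given as counts in the WT, 3 d and 7 d TEAD lists, in that order. Of 74 other developmental homeobox genes, 1, 4 and 5 had a promoter peak (1.35%, 5.41% and 6.76%, the last with an interval of 2.92 to 14.9), and these shares overlapped those of the Hox genes. Six5, at 6.25, 17.89 and 21.91-fold enrichment, was called in all 3 lists, and Irx5, Lhx4 and Lhx6 after induction. Of the 6 ParaHox genes, the evolutionary sisters of the Hox genes, 0 were called in any list. With so few genes this allows up to 39.03%, which reached the share of all genes in each TEAD list. Of 9 HOX cofactors, 2, 5 and 4 were called (22.2%, 55.6% and 44.4%), and the intervals at 3 d and 7 d, 26.7 to 81.1 and 18.9 to 73.3, held the share of all genes. They included Meis1 (fold enrichment 4.92, 13.95 and 17.2) and Meis2 (4.39, 10.34 and 21.91), which bind DNA with HOX proteins. Of 17 chromatin regulators, 0, 8 and 8 were called (47.1% at 3 d and 7 d, 26.2 to 69.0), again near the share of all genes. Among them were Ezh2 and Eed, Polycomb subunits, at 6.07 and 6.4 at 3 d, and Mll1, which methylates histone H3 at Hox genes, at 6.89. For hepatocyte factors it was 1, 11 and 9 of 14 (7.14%, 78.6% and 64.3%), with Hnf4a at 11.73 at 3 d. Their intervals were 1.27 to 31.5, 52.4 to 92.4 and 38.8 to 83.7, against 8.73%, 39.03% and 37.7% of all genes. For ribosomal protein genes it was 13, 63 and 65 of 75 (17.3%, 84.0% and 86.7%). None of these groups had a YAP promoter peak, against 1.04% of all genes at 7 d and fewer in the other YAP lists. For groups of this size, a count of 0 is also what such backgrounds would give. Of 8 genes next to the clusters, 1, 4 and 2 were called (12.5%, 50% and 25%), with intervals that held the share of all genes in each list. Skap2, next to Hoxa, had a TEAD promoter peak in all 3 TEAD lists (4.39, 11.49 and 16.26), and its peak at 3 d was 142 kb from the cluster.

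**Figure D5:**
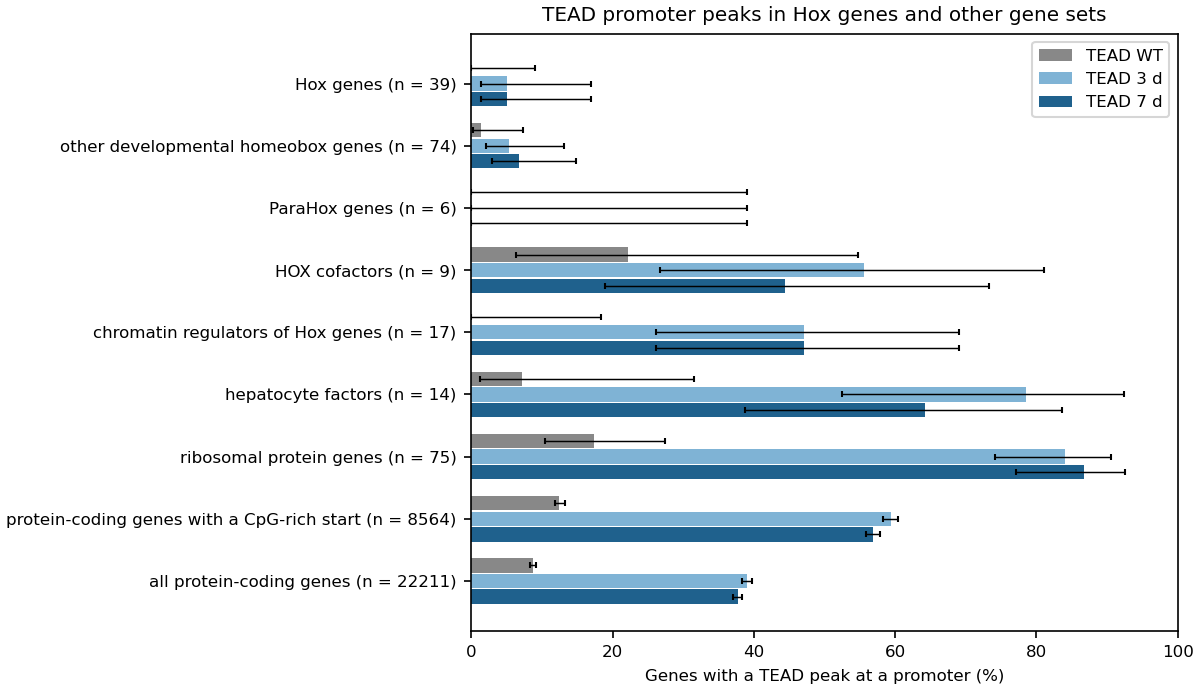
Share of genes with a TEAD promoter peak (x axis, %) for Hox genes and comparison groups in the 3 TEAD lists, with Wilson intervals. Hox genes reach 5.13% after induction and other developmental homeobox genes 6.76%, while ribosomal protein genes reach 86.7%.

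The nearest binding by both proteins to a Hox cluster was downstream of Hoxc4, a trunk and neck gene. The site was picked after its values were seen. It lies in intergenic sequence about 53.4 kb beyond the end of the Hoxc cluster. TEAD was called there in the WT list (chr15:102920472-102921045, fold enrichment 5.52), at 3 d (chr15:102919987-102921381, 9.99) and at 7 d (chr15:102919880-102921311, 17.52, above 88.2% of the list). YAP was called at 7 d (chr15:102920686-102920968), with a fold enrichment of 4.35 and rank 1254 of 1478 by p-value, and this was the only YAP peak within 100 kb of a cluster. The 4 summits lay within 63 bp. The YAP peak holds 2 matches to GGAATG on opposite strands with 20 bases between them, shown in capitals on the plus strand.
site downstream of Hoxc4: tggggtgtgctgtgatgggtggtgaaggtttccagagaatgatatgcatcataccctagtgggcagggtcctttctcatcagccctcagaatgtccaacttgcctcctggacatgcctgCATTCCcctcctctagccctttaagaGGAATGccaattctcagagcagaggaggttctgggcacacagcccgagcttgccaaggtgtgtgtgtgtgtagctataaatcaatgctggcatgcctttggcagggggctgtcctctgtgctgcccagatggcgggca
A further TEAD site followed at chr15:102925658-102925960 at 3 d (6.57) and chr15:102925609-102926059 at 7 d (15.08). Near Hoxd, the promoter of Lnp, 89.1 kb before the cluster, had a TEAD peak at 3 d (5.75) and 7 d (5.42), and that of Mtx2 at 3 d (3.78). At 7 d a TEAD peak lay in an intron of Mtx2 (chr2:74693098-74693420, 10.37), 89.9 kb past the cluster. Near Hoxb, the only TEAD peak within 100 kb was in an intron of Ttll6 at 7 d (5.93). Which genes these sites act on was not measured.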

How the data were processed

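Chromatin of 19 liver samples was immunoprecipitated for YAP or TEAD. The authors aligned reads to mm9 with BWA 0.6.2, merged replicates of each group and called peaks with MACS 2.0.9 (p cutoff 1.00e-05) against a control of 167176362 tags. The study's methods name published input as this control. Tissue for YAP was fixed with DSG and formaldehyde, and for TEAD with formaldehyde alone. The deposited pileup is a signal, the number of fragments over the summit. The deposited fold enrichment is the ratio of pileup to local background. The deposited −log10 p-value and −log10 q-value came from the same caller and ranked peaks within 1 list.

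Groups were taken from the labels. Peaks were counted against GENCODE for NCBIM37 with Python 3.11.15, by an overlap of at least 1 bp. Sequence came from that assembly. Peak assignment was tested on simulated data. Wilson and exact Poisson intervals cover counting error. The members and lists were chosen with earlier results of these data known. The rule for named genes took every Hox gene with a promoter peak, and the comparison lists. Alternatives changed the peak strength, list length, flanks, promoter and starts. No sample was left out. 1 of the Hox genes with a promoter peak is not reported here, though totals over the 39 genes include it.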

Additional observations from a re-analysis of the deposited data

How the results depend on the processing

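Of 84 recomputations, 70 gave a count within 1.5 times the original and 14 did not. Most of the 70 were counts of 0 in the YAP and WT TEAD lists that stayed at 0, and stricter settings cannot raise a 0. The 70 therefore do not measure how stable the TEAD counts after induction were. Of the 42 YAP recomputations, 41 stayed at 0. The counts that moved were mostly those of the TEAD lists at 3 d and 7 d. With peaks of at least 5-fold enrichment, 1 peak and 1 Hox gene were left in the TEAD lists at 3 d (27.1% of all protein-coding genes) and 7 d (33.5%). With −log10 p-values of at least 10, the 7 d list kept 1 peak and 1 Hox gene (32.9% of all). Limited to its strongest 5695 peaks, the length of the WT list, each induced TEAD list kept 0 peaks and 0 Hox genes. The share of all genes was then 7.76% at 3 d and 5.99% at 7 d. At this length the Hox count was 0 in all 3 TEAD lists. A count of 0 of 39 genes allows up to 8.97%, which reached these shares, so it did not set the Hox genes apart. With 100 kb on either side, the clusters held 1 YAP peak at 7 d, and TEAD peaks numbered 1 in the WT list, 6 at 3 d and 8 at 7 d. No paired analysis was possible because each group's samples were pooled ahead of peak calling, and for the same reason no replicate could be left out. Binding too weak to be called at this depth would be missed.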
